A study of Saccharomyces cerevisiae with 8 samples.

Results

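The rows described here are antisense transcripts of *Saccharomyces cerevisiae* genes that lie over noncoding transcription units already catalogued in yeast. RNA-Seq counts were compared between 4 libraries of a wild-type strain (WT) and 4 libraries of a strain in which the *RRP6* gene is deleted (*rrp6Δ*). Both strains are isogenic to BY4741, the deletion strain comes from the yeast knockout collection, and all cultures were grown in YPD medium to an OD600 of 0.8. The deposited table lists 10054 transcripts, and 1236 of them are antisense rows, each of which carries the coordinates of a coding region on the reversed strand. A row was taken when the table also listed the gene's own transcript (ORF-T, with its untranslated ends) and when 50% or more of the antisense length was covered, on the same chromosome and strand, by 4 classes of noncoding units together. The rule found 536 rows. A further 444 antisense rows with an ORF-T were covered less, and 256 had no ORF-T row to compare.

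Rrp6 is the nuclear 3′ to 5′ exonuclease of the exosome. In yeast it degrades and trims transcripts that are ended by the Nrd1-Nab3-Sen1 complex (NNS), in which Nrd1 and Nab3 bind short motifs of the nascent RNA and Sen1 is a helicase that releases the polymerase. The 4 covering classes are named after the condition in which each was seen. Cryptic unstable transcripts (CUTs) accumulate when the nuclear exosome is impaired, stable unannotated transcripts (SUTs) are seen in wild-type cells, Nrd1-unterminated transcripts (NUTs) appear when Nrd1 is depleted from the nucleus, and Ssu72-restricted transcripts (SRTs) appear when the termination factor Ssu72 is impaired. A unit antisense to a gene runs toward the promoter of that gene, and such units are known to interfere with the sense gene at some loci, *PHO84* being the best studied.

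Each row was assigned to the class that covers most of it. NUTs covered most of 427 rows, SUTs of 56, CUTs of 36 and SRTs of 17. In 47 rows 2 or more classes covered the same length, and these went to the first of CUT, SUT, NUT and SRT, which accounts for 22 of the CUT rows and 20 of the SUT rows. The units overlap each other, so that 79 rows were covered to 50% or more by CUTs and by NUTs but by no other class, and 39 by SUTs and NUTs only. The whole of the row was covered in 390 cases. Together 867 units lay over the 536 rows (451 NUTs, 272 CUTs, 93 SUTs and 51 SRTs), and 62 rows shared a unit with another row, so neighbouring rows are not independent of each other.

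The first bases of the antisense row are shown, opposite the stop codon of the gene, as the place where the listed antisense strand enters the coding region. The row is the reversed coding region and not a mapped transcript, and covering units can begin before it, as SUT153 over *SOD2* (from 121890) and NUT0607 over YMR194C-A (from 652276) do. Shown are the rows with the largest fitted rise in each class and those of genes known for antisense regulation. The sequences were read from the RefSeq R64 genome. Capitals mark the Nrd1 motifs GTAA and GTAG and the Nab3 motif TCTT on the antisense strand, adjoining motifs running together.
YMR194C-A, CUT, chrXIII:652912-653061, plus strand: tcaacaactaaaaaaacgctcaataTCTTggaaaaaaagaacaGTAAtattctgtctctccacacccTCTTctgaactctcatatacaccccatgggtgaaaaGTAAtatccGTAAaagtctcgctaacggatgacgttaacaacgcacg
SOD2, SUT, chrVIII:122889-123038, plus strand: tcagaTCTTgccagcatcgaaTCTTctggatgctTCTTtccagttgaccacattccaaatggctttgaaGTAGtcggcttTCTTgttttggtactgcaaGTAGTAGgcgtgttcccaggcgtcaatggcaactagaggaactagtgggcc
TIM9, NUT, chrV:117325-117474, minus strand: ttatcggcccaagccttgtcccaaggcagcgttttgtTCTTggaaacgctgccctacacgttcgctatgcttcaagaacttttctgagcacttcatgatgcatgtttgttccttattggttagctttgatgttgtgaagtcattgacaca
DAK1, SRT, chrXIII:135080-135229, minus strand: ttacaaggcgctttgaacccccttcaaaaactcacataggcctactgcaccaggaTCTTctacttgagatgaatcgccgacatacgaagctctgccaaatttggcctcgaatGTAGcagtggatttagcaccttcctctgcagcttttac
FMP40, NUT, chrXVI:132079-132228, minus strand: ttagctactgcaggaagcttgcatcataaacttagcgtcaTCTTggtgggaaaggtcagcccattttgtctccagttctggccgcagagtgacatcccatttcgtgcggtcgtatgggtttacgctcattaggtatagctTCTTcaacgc
PHO84, CUT, chrXIII:24037-24186, plus strand: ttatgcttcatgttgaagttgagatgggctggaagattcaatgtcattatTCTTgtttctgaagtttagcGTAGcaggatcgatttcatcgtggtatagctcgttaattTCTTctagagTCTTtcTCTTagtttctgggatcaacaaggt
SUR7, SUT, chrXIII:171161-171310, minus strand: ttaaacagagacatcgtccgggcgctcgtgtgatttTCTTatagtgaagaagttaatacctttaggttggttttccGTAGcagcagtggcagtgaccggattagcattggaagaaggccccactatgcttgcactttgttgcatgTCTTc

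Over the first 150 bases of the antisense strand, 449 of the 534 rows of that length or more held the Nab3 motif (84.1%), against 901 of all 1211 antisense rows (74.4%) and 2975 of 5744 ORF-Ts read on their own strand (51.8%). An Nrd1 motif was found in 379 of the 534 rows (71.0%), against 827 of the 1211 antisense rows (68.3%) and 3446 of the ORF-Ts (60.0%). Over whole rows the density of the Nab3 motif was 12.98 per kb in rows covered mainly by CUTs, 12.2 by NUTs, 10.7 by SRTs and 8.46 by SUTs, while the coding strand of the 536 rows held 4.57 per kb. The density of the Nrd1 motifs differed less between the classes, from 7.44 per kb under SRTs to 8.60 under NUTs, with 5.36 per kb on the coding strand. The 444 less covered antisense rows also held more of both motifs than their coding strand. Their densities were 10.6 against 5.61 per kb for Nab3 and 8.60 against 5.13 for Nrd1. On the coding strand the Nab3 motif reads AAGA, which lysine and arginine codons can spell, and the part of codon use in these densities was not tested. A match of these letters is not a binding site.

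The making of the table limits what the antisense counts can show. The study kept antisense rows that changed in these same libraries, so their changes are given as a description. Where such rows are said to lie past the thresholds given below, the call only sorts them and is not used as a test. Reads that fall on an antisense row also fall on the units that cover it, so row and unit are not separate measurements. The ORF-Ts were listed whatever their change, and the tests below concern them. A call needed a 1.5-fold change, p below 0.05 and a false discovery rate (FDR, adjusted over all 10054 transcripts) no higher than 0.1 in edgeR's quasi-likelihood fit. All log2 fold changes are of *rrp6Δ* over WT, and a normalized count is edgeR's CPM after TMM scaling, with factors derived from all transcripts. Because the libraries are bulk RNA, more cells with a transcript and more RNA per cell cannot be told apart.

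The libraries held between 6904004 and 12666126 counts. *RRP6* had 660 to 1787 counts in the WT libraries and 16 to 60 in the *rrp6Δ* libraries. The a-cell receptor gene *STE2* had 983 to 2304 counts and the alpha-cell receptor gene *STE3* had 19 to 47. *URA3*, which is deleted in BY4741, was listed with 49 to 103 counts in each library, and what its row counts was not tested.

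Antisense counts were higher in *rrp6Δ* past the thresholds for 94.4% of the rows under NUTs, 88.9% under CUTs, 64.7% under SRTs and 39.3% under SUTs. In all, 468 of the 536 rows lay past the thresholds upward and 4 downward, where 25.6% of all transcripts lay past them upward and 9.61% downward. The antisense shares were shaped beforehand by the study's selection of changed rows, so they do not measure enrichment. In normalized counts, on which overlap is judged throughout, the *rrp6Δ* libraries lay wholly above the WT libraries in 438 rows, against 21.9% of all transcripts. The median antisense log2 fold change was 2.12, with the middle 50% of rows between 1.63 and 2.71, where the median over all antisense rows was 1.5 and that over all transcripts was -0.14. In the 444 antisense rows that the units covered less, 194 lay past the thresholds upward and 27 downward, with a median of 0.64.

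The median antisense level, in normalized counts per kb, was 0.697, 0.952, 0.849 and 0.493 in WT libraries 1 to 4. In *rrp6Δ* libraries 1 to 4 it was 3.37, 3.30, 3.25 and 2.54. The lowest *rrp6Δ* value lay above the highest WT value, and library 4 was the lowest of each strain. These are small numbers of reads, since the median row had 7.5 counts per WT library and 45.0 per *rrp6Δ* library. No row was removed for low counts, and no row had fewer than 39 counts when all 8 libraries were added. In 51 rows every WT library had 3 counts or fewer, so these rows could enter the table only through their *rrp6Δ* reads.

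The classes differed in the size of the antisense change. Of the rows covered mainly by NUTs, 403 of 427 lay past the thresholds upward, with a median log2 fold change of 2.20. For CUTs the numbers were 32 of 36 and a median of 2.21, and for SRTs 11 of 17 and 1.68. For SUTs 22 of 56 lay upward and 4 downward, and the median was -0.10. The sign of this SUT median depends on the scaling, being 0.21 when ORF-Ts alone set the TMM factors and 0.32 when libraries are scaled by their totals.

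**Figure D1:**
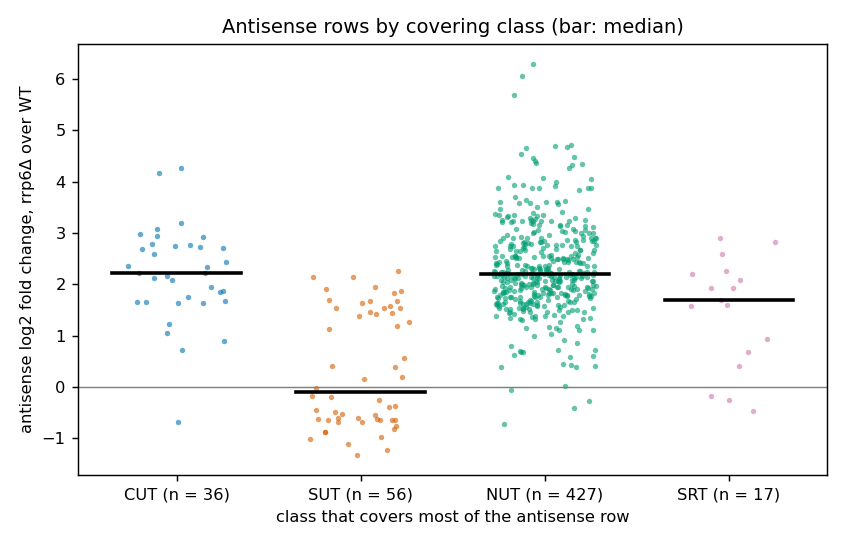
Antisense log2 fold change of *rrp6Δ* over WT (vertical axis) for each of the 536 rows, by the class that covers most of the row (horizontal axis). Each point is 1 row and each bar the class median, which is 2.21 for CUTs, -0.10 for SUTs, 2.20 for NUTs and 1.68 for SRTs.

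The rows can also be grouped by every class that covers 50% or more, whichever class covers most. These groups cut across those above, since rows under a SUT and a NUT include rows assigned to NUTs. Where a SUT and no other class covered 50% or more, 6 of 33 rows lay past the thresholds upward and the median was -0.48. Where a NUT covered the row as well as a SUT, 30 of 39 rows did and the median was 1.46. All 79 rows under both a CUT and a NUT lay upward, with a median of 2.43, and 78 of them without overlap between the strains. Rows under NUTs alone (342) had a median of 2.21. Under CUTs alone 7 of 10 rows lay upward with a median of 1.70, so that most of the CUT-covered rows that lay upward were under a NUT as well.

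In WT cells the SUT-covered rows were the most abundant. Their median antisense level in WT was 2.98 normalized counts per kb, against 1.71 for CUTs, 0.631 for NUTs and 0.603 for SRTs. In *rrp6Δ* the order was different, at 7.92 for CUTs, 3.87 for SUTs, 2.93 for NUTs and 1.31 for SRTs. Of the covering units themselves, which hold largely the same reads, 264 of the 272 CUTs, 392 of the 451 NUTs, 36 of the 51 SRTs and 47 of the 93 SUTs lay past the thresholds upward. Of all listed units this held for 595 of 732 CUTs, 835 of 1291 NUTs, 88 of 198 SRTs and 196 of 686 SUTs. The covering units lie over rows selected for change, so the difference between these shares does not measure enrichment.

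Of the 20 largest fitted antisense rises, 10 were of rows with 3 counts or fewer in every WT library, and the rank of these rests on fitted folds over almost no reads. *TIM9* (YEL020W-A), which encodes a small chaperone of mitochondrial protein import, had 0 antisense counts in each WT library and 17, 9, 14 and 7 in *rrp6Δ* libraries 1 to 4. With 3 counts taken as the floor of each library this is at least 2.46-fold higher, and 64.4% of the row is shared with the ORF-T YEL020C-B on the same strand. *PAM16*, a subunit of the mitochondrial import motor, had 0, 1, 0 and 0 antisense counts in WT against 56, 18, 62 and 11 in *rrp6Δ*. With the same floor this is at least 7.33-fold higher.

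*SIF2*, a subunit of the Set3 histone deacetylase complex, had 0, 0, 1 and 0 antisense counts in WT against 46, 15, 34 and 16 in *rrp6Δ*, or at least 5.63-fold higher. The sense rows of *TIM9* and *SIF2* were not called (log2 fold changes -0.30 ± 0.22 and -0.32 ± 0.19, standard errors, FDR = 0.317 and 0.215 in edgeR's fit). *CUE5*, whose protein binds ubiquitin and the autophagy factor Atg8, had 10, 14, 21 and 14 antisense counts in WT and 476, 411, 850 and 630 in *rrp6Δ*, or 1.93 ± 0.931 and 49.1 ± 16.3 normalized counts (SD, n = 4). Its sense row fell, as given below.

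Under CUTs the largest rise was that of YMR194C-A, with 9, 8, 12 and 0 antisense counts in WT and 236, 180, 286 and 136 in *rrp6Δ*. *VFA1*, whose protein binds the endosomal ATPase Vps4, had 2, 5, 0 and 2 against 73, 48, 76 and 54. *AIM11* and *FMP16* followed, with antisense log2 fold changes of 3.20 and 3.07. NUTs covered 100% of each of these 4 rows too, which count as CUT rows through the order given for ties. The strains did not overlap in any of these antisense rows. Of the 4 sense rows that of YMR194C-A was called lower (-1.18 ± 0.43, FDR = 0.0585, edgeR). It had 39, 13, 8 and 14 sense counts in WT and 10, 7, 11 and 16 in *rrp6Δ*, and the strains overlapped.

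Under SUTs the largest rise was that of *SOD2*, the mitochondrial manganese superoxide dismutase, with 41, 47, 26 and 18 antisense counts in WT and 343, 223, 300 and 96 in *rrp6Δ*. *CDD1*, which encodes cytidine deaminase, had 19, 5, 5 and 7 against 71, 53, 57 and 44, and its sense row fell (-0.89 ± 0.28, FDR = 0.032, edgeR). YBR116C and *YIH1*, an inhibitor of the Gcn2 kinase pathway, had antisense log2 fold changes of 2.14 and 1.95. A NUT covered each of these 4 rows as well, to between 81.4% and 100%.

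Under SRTs the largest rises were those of *DAK1*, a dihydroxyacetone kinase, with 2, 5, 0 and 0 antisense counts in WT and 37, 20, 19 and 7 in *rrp6Δ*, and of *RRG8*, with 2, 1, 4 and 0 against 13, 16, 34 and 13. *RRG8* is also covered by a CUT to 64.4%. Neither sense row was called (FDR = 0.165 and 0.365, edgeR).

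Antisense RNA was lower in *rrp6Δ* over 4 SUT-covered rows, of which *GAL4* and *SUL2* had strains that did not overlap. *GAL4*, the activator of the galactose genes, had 258, 187, 149 and 133 antisense counts in WT against 166, 169, 104 and 91 in *rrp6Δ*. Normalized, these were 21.6 ± 1.89 and 11.1 ± 4.43. Its sense row was called lower too (-1.15 ± 0.47, FDR = 0.0857, edgeR), but there the strains overlapped. WT 4 held 96 sense reads, where the other WT libraries held 30 to 40 and the *rrp6Δ* libraries 15 to 48. *SUL2*, a sulfate permease, had 63, 58, 39 and 54 antisense counts against 82, 39, 38 and 22, or 6.53 ± 1.15 and 3.51 ± 1.28 normalized. *FCY22*, a member of the purine and cytosine permease family, and *SWE1*, the kinase that inhibits Cdc28, were the others, with log2 fold changes of -1.22 and -1.02. The number of SUT-covered rows called lower was 6 with DESeq2, 15 with a replicate block and 0 with either of the other scalings named above.

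Some of the genes lie near a small nuclear or nucleolar RNA gene (sn/snoRNA) on the opposite strand. Whether its transcript reads into them was not tested with these counts. By northern blot the study reported an extended snR71 transcript in *rrp6Δ*. Its northern blot of snR11 showed no long read-through transcript, while polymerase reached farther downstream there. In 17 of the 536 rows the antisense strand held part of an sn/snoRNA row or of the extended region (ET) that the study annotated downstream of one. All 17 lay past the thresholds upward without overlap between the strains, with a median log2 fold change of 3.99, against 2.08 for the other 519. Among the 20 largest antisense rises, 8 were of this kind, with *PAM16* (snR37), *CUE5* (snR62), *SER1* (snR36), *CAF20* (snR31), *CMC4* and YMR194C-A (snR11), *ODC2* (snR35) and *KTR2* (snR42). The sn/snoRNA row itself reached into 6 of the 17 rows, so that reads of the mature RNA can enter the antisense count of *LIN1*, *CMC4*, *GLO4*, *POP6*, *STE23* and *KTR2*. A further 39 rows, some of them among the 17, overlapped an ORF-T on the same strand, 8 of them over 50% or more of their length.

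The 3 rows most abundant in WT per kb were of *CMC4*, *GLO4* and YJR146W. *CMC4*, which encodes a small protein of the mitochondrial intermembrane space, had 223, 272, 296 and 88 antisense counts in WT and 7574, 6027, 8057 and 6317 in *rrp6Δ*. *GLO4*, a mitochondrial glyoxalase, had 464, 649, 529 and 185 against 3902, 4571, 4955 and 3723, and its sense row fell (-0.60 ± 0.21, FDR = 0.046, edgeR). YJR146W, under a SUT and a NUT, had 190, 137, 103 and 80 against 355, 202, 194 and 225, or 15.0 ± 2.52 and 19.7 ± 3.39 normalized counts, and its strains overlapped. The first pair overlaps the rows of snR11 and snR9, whereas YJR146W overlaps no sn/snoRNA. CUT306, which begins at the last base of the snR11 row, had 223, 270, 297 and 88 counts in WT, nearly those of the *CMC4* antisense row.

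**Figure D2:**
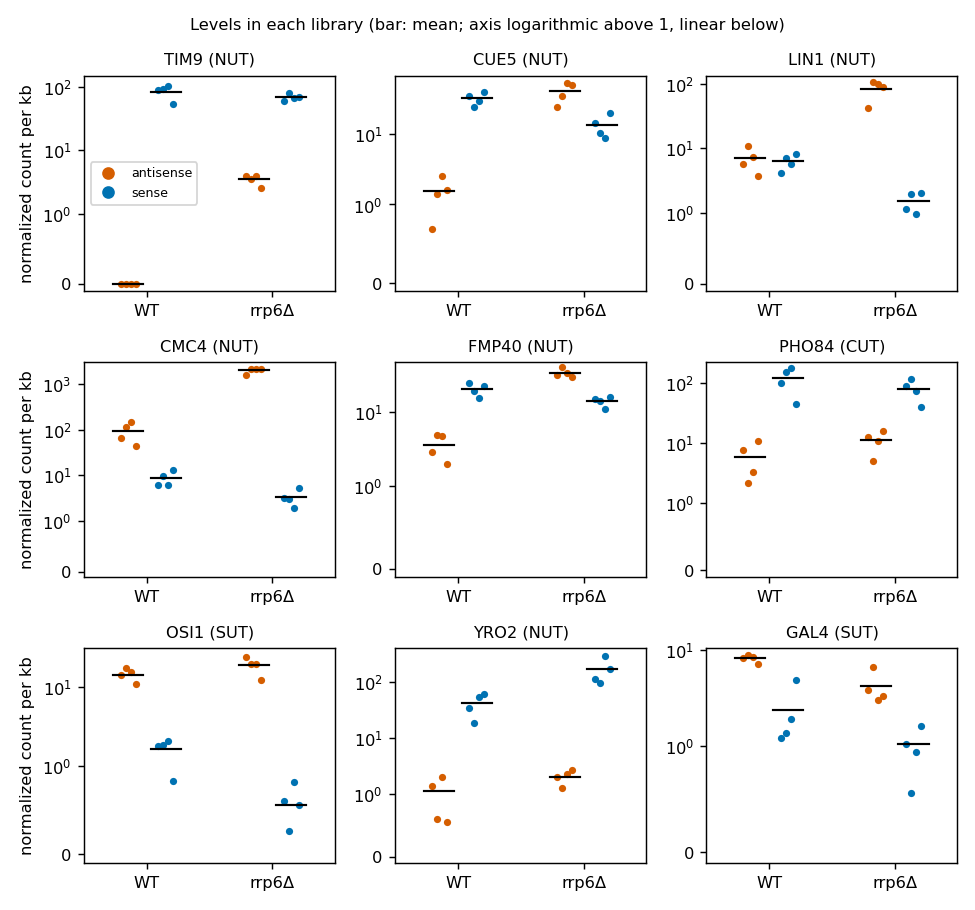
Normalized counts per kb of the antisense row (orange) and the sense ORF-T (blue) of 9 genes in the 4 WT and the 4 *rrp6Δ* libraries, with the covering class in parentheses. Each point is 1 library and each bar a mean of 4; the axis is logarithmic above 1 and linear below, and antisense points of *CMC4*, *LIN1*, *CUE5* and *FMP40* rise between the strains while those of *GAL4* lie lower.

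Antisense levels overtook sense levels over part of the genes. Per kb, the antisense row exceeded the ORF-T in 31, 40, 36 and 19 of the 536 genes in WT libraries 1 to 4 and in 104, 126, 106 and 82 genes in *rrp6Δ* libraries 1 to 4. The strains did not overlap in this count. In 12 genes the antisense row was the higher in all 4 WT libraries, and 9 of these rows were under SUTs. In 61 genes it was the higher in all 4 *rrp6Δ* libraries. These were 39 of the 427 under NUTs, 14 of the 56 under SUTs, 8 of the 36 under CUTs and 0 of the 17 under SRTs. The antisense row was the higher in all 4 *rrp6Δ* libraries and in no WT library for 22 genes, *FMP40*, *CUE5*, *VFA1*, *CDD1*, *MEI4* and *SPR3* among them.

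**Figure D3:**
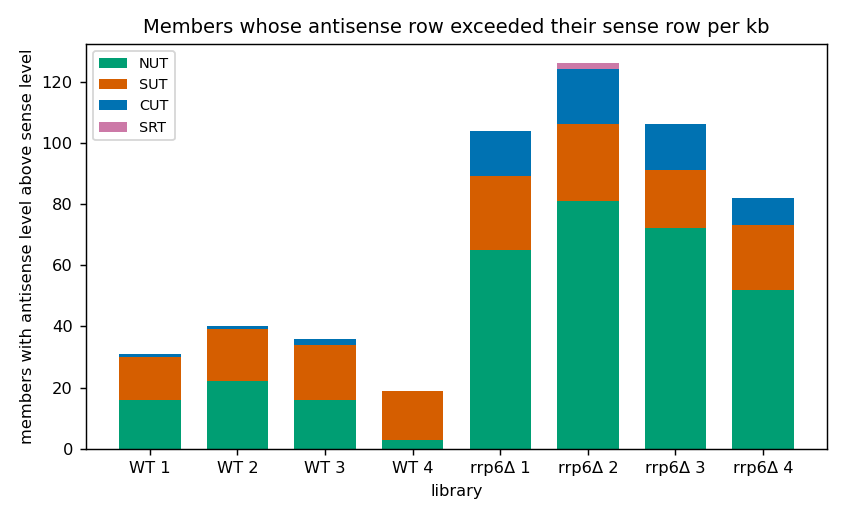
Number of genes whose antisense level per kb exceeded their sense level (vertical axis) in each library (horizontal axis), stacked by covering class. The WT libraries hold 19 to 40 such genes and the *rrp6Δ* libraries 82 to 126.

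The share of sense reads assigned to the wrong strand is bounded by the lowest antisense counts at well expressed genes. *TIM9* had 0 antisense and 1144 sense counts over the 4 WT libraries, and *NPA3*, a factor for nuclear import of RNA polymerase II, had 3 antisense and 9857 sense counts (0.0304%). In *rrp6Δ* the same 2 genes had 47 antisense to 1337 sense counts (3.52%) and 88 to 11006 (0.800%).

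Sense transcripts were then compared. Of the 536 sense ORF-Ts, 109 fell past the thresholds (20.3%) and 4 rose (0.746%), where 14.3% of all 5753 ORF-Ts fell and 2.09% rose. The *rrp6Δ* libraries lay wholly below the WT libraries in 101 sense ORF-Ts (18.8%) and wholly above in 3, against 13.8% and 1.63% of all ORF-Ts. The median sense log2 fold change was -0.41, against -0.32 for all ORF-Ts, -0.33 for the ORF-Ts of the 444 less covered rows and -0.31 for the 4773 ORF-Ts without a listed antisense row. In the fit with a replicate block 7 sense ORF-Ts rose and 145 fell (27.1%), where 2.62% of all ORF-Ts rose and 19.4% fell.

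The size of the sense fall rests on the scaling. Taking the TMM factors from the ORF-Ts moved the median of all transcripts from -0.14 to 0.17 and that of all ORF-Ts from -0.32 to -0.02, and library totals moved them to 0.23 and 0.04. The number of sense ORF-Ts that fell was then 18 (3.36%, where 2.66% of all ORF-Ts fell) and 11 (2.05%, against 1.48%), and 11 and 12 rose. A change of scaling shifts all transcripts nearly alike, so the median of the sense ORF-Ts minus that of all ORF-Ts could hardly move. This difference was -0.09 with either TMM scaling and -0.10 with library totals. It was -0.05 without *rrp6Δ* 2 and -0.06 without WT 4. Leaving out 1 library at a time gave between 53 falls (9.89%, without *rrp6Δ* 1, where 6.76% of all ORF-Ts fell) and 115 falls (21.5%, without WT 2, against 16.0%). Without WT 4 there were 66 falls (12.3%, against 7.91%).

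By class, 94 of 427 sense ORF-Ts fell opposite NUT-covered rows (22.0%), 6 of 36 opposite CUTs (16.7%), 6 of 56 opposite SUTs (10.7%) and 3 of 17 opposite SRTs (17.6%). The medians were -0.42, -0.46, -0.35 and -0.35. Only the NUT group is large enough for its share to be read against the 14.3% of all ORF-Ts, since 1 gene makes 2.78% of the CUT group. That share rests on the scaling too. With TMM factors from ORF-Ts only 15 of the 427 fell, where 2.66% of all ORF-Ts did. With library totals 9 fell, where 1.48% of all ORF-Ts did. The difference between the classes was not tested.

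**Figure D4:**
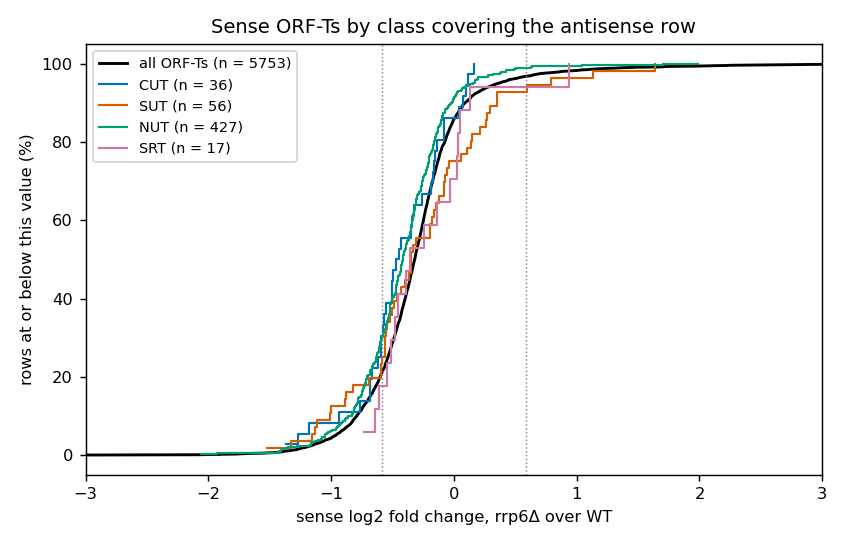
Share of sense ORF-Ts (vertical axis, %) at or below a given log2 fold change of *rrp6Δ* over WT (horizontal axis), for all 5753 ORF-Ts (black) and for the ORF-Ts opposite rows covered mainly by each class. Dotted lines mark a fold change of 1.5 in each direction, and the medians lie between -0.32 for all ORF-Ts and -0.46 opposite CUTs.

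In 4 equal groups of the 536 rows ordered by antisense log2 fold change, from lowest to highest, 30, 25, 27 and 27 sense ORF-Ts fell, of 134 in each. With TMM factors from ORF-Ts only these numbers were 5, 6, 2 and 5, and their differences were not tested. Across the 536 genes the antisense and sense log2 fold changes had a Spearman correlation of -0.06 and a Pearson correlation of -0.15, as a description of genes that share the 8 libraries. Ordered instead by the antisense level per kb in *rrp6Δ*, 21, 21, 26 and 41 sense ORF-Ts fell. The highest group had a median sense log2 fold change of -0.51. It also held 12 of the 17 rows beside an sn/snoRNA, and without the rows that share reads with another listed transcript 30 of its 110 sense ORF-Ts fell. With TMM factors from ORF-Ts only the 4 numbers were 1, 3, 5 and 9, with 5 of the 110.

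By position the shares of sense falls were close to each other. The covering units reached the far end of the antisense row, opposite the start codon of the gene, in 477 genes, and 96 of these sense ORF-Ts fell (20.1%), as did 13 of the other 59 (22.0%). A covering unit started within the row in 214 genes, of which 47 fell, against 62 of 322 where every unit started outside it. Of the 468 genes whose antisense row lay past the thresholds upward, the sense ORF-T fell in 100 (21.4%), close to the 20.3% of all 536, and in 1 gene, YOR186W, both were past them upward.

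**Figure D5:**
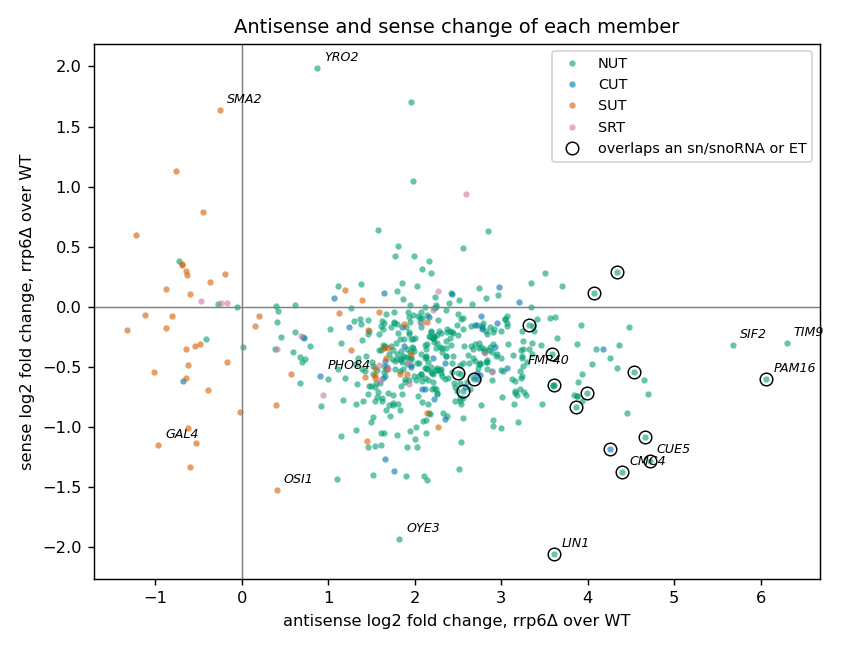
Antisense (horizontal axis) and sense (vertical axis) log2 fold change of *rrp6Δ* over WT for each of the 536 genes, coloured by covering class, with circles around the 17 rows that overlap an sn/snoRNA or ET. The medians over all 536 genes are 2.12 and -0.41, and the Spearman correlation is -0.06. By class the correlation is -0.31 for SUTs, 0.12 for CUTs, -0.01 for NUTs and -0.09 for SRTs. The SUT rows have an antisense median of -0.10.

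The 6 largest sense falls without overlap between the strains were those of *LIN1*, *OYE3*, *OSI1*, *ANB1*, *SIM1* and *CMC4*. Overlap, here and above, was judged with TMM factors from all transcripts and not under the other scalings. *LIN1* (YHR156C), which encodes a protein of the U5 snRNP, had 53, 62, 41 and 62 sense counts in WT and 20, 20, 14 and 23 in *rrp6Δ* (log2 -2.06 ± 0.35, standard error, FDR = 0.00129, edgeR). Its antisense row had 69, 90, 51 and 27 against 707, 1052, 1381 and 964 counts. Per kb the antisense level in *rrp6Δ* was 85.3 normalized counts and the sense level 1.52, while in WT they were 6.98 and 6.28. The antisense row overlaps the row of snR71 at its start. The ET row that follows snR71 had 306, 330, 474 and 305 counts in *rrp6Δ*, fewer than the antisense row, so that reads on the snR71 row make up part of the antisense level.

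*OYE3*, an NADPH oxidoreductase, had 59, 39, 34 and 162 sense counts in WT and 34, 18, 20 and 47 in *rrp6Δ* (-1.93 ± 0.56, FDR = 0.0216, edgeR), WT 4 standing well above the other libraries, and without WT 4 the log2 fold change was -0.94 (FDR = 0.0907). Its antisense row had 7, 8, 5 and 1 against 42, 17, 32 and 22 counts. *OSI1*, a gene induced by oxidative stress, had 26, 18, 17 and 7 sense counts against 12, 3, 13 and 7 (-1.52 ± 0.43, FDR = 0.018, edgeR). Its antisense row, under a SUT, was the more abundant strand in every library and overlapped between the strains, at 11.2 ± 2.12 and 14.7 ± 3.81 normalized counts.

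*ANB1*, the hypoxic isoform of translation factor eIF5A, had 116, 48, 72 and 48 sense counts in WT and 75, 19, 52 and 17 in *rrp6Δ* (-1.44 ± 0.37, FDR = 0.0113, edgeR). *SIM1*, a cell wall protein of the SUN family, fell from 79.99 ± 37.6 to 30.1 ± 6.05 normalized counts (-1.40 ± 0.31, FDR = 0.00469, edgeR). The antisense rows of *ANB1* and *SIM1*, under NUTs, had log2 fold changes of 2.14 and 2.10. *CMC4* fell from 5.17 ± 1.98 to 1.99 ± 0.849 sense normalized counts (-1.38 ± 0.39, FDR = 0.0178, edgeR). All 6 genes stayed past the thresholds under every other setting in which their rows were tested, with FDR up to 0.0993 (*OYE3*, where every library had to reach 10 counts).

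The 17 genes beside an sn/snoRNA are given apart. In these the sense ORF-T fell in 9 cases, with a median of -0.65, and in the other 519 it fell in 100 (19.3%). *CUE5* fell from 42.2 ± 8.64 to 17.4 ± 6.48 normalized counts (-1.28 ± 0.27, FDR = 0.00409, edgeR), and *PAM16* from 32.6 ± 7.68 to 21.5 ± 3.09 (-0.60 ± 0.21, FDR = 0.0525). With TMM factors from ORF-Ts only, 4 of the 17 and 14 of the 519 fell. This grouping was made after the values were seen, so no test is given.

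Only 4 sense ORF-Ts rose, 3 of them without overlap between the strains. *YRO2*, a membrane protein related to the heat-shock protein Hsp30, had 642, 232, 586 and 691 sense counts in WT and 2914, 1482, 6077 and 2844 in *rrp6Δ* (1.98 ± 0.41, FDR = 0.00362, edgeR). Its antisense row, under a NUT and an SRT, had 17, 5, 14 and 4 against 34, 13, 32 and 29 counts and was not past the thresholds. *SMA2*, a gene of prospore membrane assembly in meiosis, had 7, 7, 3 and 2 sense counts against 33, 17, 22 and 17 (1.64 ± 0.40, FDR = 0.00878, edgeR).

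The antisense row of *SMA2*, under a SUT, overlapped between the strains at 5.70 ± 0.606 and 4.73 ± 1.04 normalized counts. YOR186W had 9, 5, 2 and 5 sense counts against 16, 16, 16 and 14 (1.04 ± 0.41, FDR = 0.0755, edgeR), and was no longer called without WT 2, WT 3, *rrp6Δ* 2 or *rrp6Δ* 3 (FDR 0.112 to 0.169). *CRF1*, a corepressor of ribosomal protein genes, was the other (1.13 ± 0.39, FDR = 0.0441, edgeR), and its libraries overlapped.

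Of 9 genes listed for published antisense regulation, 7 had an ORF-T, of which *PHO5* and *TIR1* fell and 0 rose in edgeR's fit (0 at an unadjusted p below 0.05 and 0 with DESeq2). Among the 536 were 3 of the 9. *FMP40*, a mitochondrial protein related to a family of AMPylating enzymes, had 70, 80, 65 and 29 antisense counts in WT and 1064, 798, 917 and 623 in *rrp6Δ*, or 7.44 ± 2.88 and 69.2 ± 9.97 normalized counts. Its sense ORF-T had 45.4 ± 8.91 and 31.3 ± 4.93 (-0.53 ± 0.21, FDR = 0.0681, edgeR), which is under the fold threshold, and it was called without WT 3 (-0.65, FDR = 0.0461). Leaving out any other library gave no call, and with library totals it was -0.20 (FDR = 0.773, edgeR). With a replicate block it was -0.53 (FDR = 0.00523, edgeR), still under the fold threshold. With block and ORF-T-based TMM factors combined it was -0.22 (FDR = 0.204, edgeR). Per kb the antisense level in *rrp6Δ* was 33.5 and the sense level 13.8, against 3.60 and 20.04 in WT. The row is covered by NUT1462 to 99.1%, and it shares 11.9% of its length with the listed ORF-T YPL222C-A.

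*PHO84*, the high-affinity phosphate transporter, is covered by CUT281. Its antisense row had 158, 30, 39 and 132 counts in WT against 367, 84, 253 and 292 in *rrp6Δ*, with libraries that overlapped and a log2 fold change of 0.90 that was not past the thresholds. Between libraries of the same number, which this fit did not pair, the antisense count was always the higher in *rrp6Δ*. The sense ORF-T of *PHO84* had 2257, 2354, 2350 and 601 counts against 2774, 2182, 1911 and 809 (-0.58 ± 0.40, FDR = 0.288, edgeR), library 4 being the lowest of each strain. Without WT 4 it was called (-0.78, FDR = 0.0993). Leaving out any other library gave no call (FDR 0.184 to 0.595, edgeR), and with library totals it was -0.11 (FDR = 0.910, edgeR). With a replicate block the sense change was -0.49 (FDR = 0.0384, edgeR), under the fold threshold. With block and ORF-T-based TMM factors combined it was -0.19 (FDR = 0.461, edgeR). *SUR7*, a protein of the eisosome under SUT719, had 1.92 ± 0.259 and 1.69 ± 0.779 antisense normalized counts, and its sense ORF-T was not called (-0.46 ± 0.32, FDR = 0.284, edgeR).

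Of 39 genes listed for meiosis and sporulation, 27 had an ORF-T, of which 2 (*REC104* and *SMK1*) rose and 6 fell, and 4 were among the 536. These were *MEI4*, which acts in meiotic break formation, *SPR3*, a sporulation septin, *RED1*, of the meiotic chromosome axis, and *NDJ1*, of meiotic telomeres. All 4 lay under NUTs and past the antisense thresholds upward, with log2 fold changes of 1.92, 2.96, 3.16 and 1.57, and 0 of their sense ORF-Ts were called by edgeR (0 at an unadjusted p below 0.05 and 0 with DESeq2). Of the ORF-Ts of 37 plasma membrane transporters, 2 (*HXT2* and *PTR2*) fell and 0 rose in edgeR's fit (0 at an unadjusted p below 0.05 and 0 with DESeq2), and 8 genes were among the 536. Antisense rows of *AGP1*, *ZRT1*, *HXT4* and *MEP2*, which carry amino acids, zinc, hexoses and ammonium, had log2 fold changes of 1.65 to 2.59. Those of *MEP1*, *SUL2* and *FET4*, under SUTs, had -0.64, -0.88 and -0.64. Of the 8 sense ORF-Ts 0 were called by edgeR (0 at an unadjusted p below 0.05 and 0 with DESeq2). None of 14 genes of nuclear RNA surveillance and NNS termination had a row among the 536, and of their ORF-Ts *NRD1* rose and *RRP6* fell.

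At the 50% limit of coverage the 3 rows just inside, of YNL035C (50.9%), *ORC2* (51.5%), a subunit of the origin recognition complex, and *SKI2* (51.9%), an RNA helicase of the cytoplasmic exosome pathway, had antisense log2 fold changes of 2.69, 1.51 and 1.85. The 3 just outside, of *HOB2* (45.9%), *LSB6* (45.3%), a phosphatidylinositol kinase, and YCL041C (44.2%), had 1.79, -0.12 and -0.64, the last pair being under SUTs.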

How the data were processed

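The members and the gene lists were chosen with earlier results of these data known. Strand-specific single reads of rRNA-depleted total RNA were sequenced on a SOLiD instrument, mapped by the authors to sacCer3 and counted on each annotated transcript. The authors deposited raw counts per transcript and library, whole numbers without normalization, and only these were analysed. The authors' normalized signal of each library was deposited as well, with the log2 fold change, p-value and FDR of their own edgeR comparison, none of which was used. The methods describe a mapping with rRNA and tRNA reads and another without them, and do not say which gave the table. Antisense rows reverse the coding region of a gene, and the authors kept those that changed in these libraries.

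Coverage was computed from the table's coordinates over CUT, SUT, NUT and SRT rows, 1 base counted once. The build was checked by reading each antisense row from the RefSeq R64 genome, and 1227 of 1236 rows ended in the reversed start codon. Of the members, 529 carry a RefSeq locus tag. Counts were fitted in R 4.3.3 with edgeR 4.0.16 (glmQLFit and glmQLFTest, TMM over all transcripts, no low-count filter, no covariates) and adjusted with the Benjamini-Hochberg method over 10054 transcripts. Standard errors were taken as |log2 fold change|/√F. Normalized counts are means ± SD over 4 libraries. The fit was tested on simulated data. The study calls its 4 replicates biological and the labels call them preparations, with no word on separate cultures, so p-values measure the spread between these libraries, which may in part be technical. Coordinates in the table overlap, and a read can count on several rows.

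Genes were named by these rules: per class the 4 largest antisense rises (2 for SRTs) and overall up to 4 falls, and up to 6 sense falls and 6 sense rises, each past the thresholds and without overlap between the strains; the 3 most abundant antisense rows per kb in WT; listed antisense-regulated genes; the 3 rows on each side of the coverage limit; and *RRP6*. Others named were chosen after their values were seen, or belong to the gene lists.

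Libraries with the same number resembled each other, but the main fit did not pair them. With strain means removed, log2 values of same-numbered libraries correlated at 0.330 to 0.520, every pair above 0.1, and others at -0.350 to 0.012. Removing the means by itself lowers the other values where the same-numbered ones are high. The block was run as an alternative. Other alternatives were DESeq2 1.42.0, library totals or ORF-T-based TMM factors, a minimum of 10 counts in every library, the filterByExpr filter, an FDR of 0.05, other coverage limits (25% and 80%) and class sets, and each library left out. A setting without the 53 members that share reads with an sn/snoRNA, ET or ORF-T row was added after the data were seen.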

Additional observations from a re-analysis of the deposited data

Results flagged for a closer look

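In 15 of 162 sets of 4 libraries examined, 1 library lay far from the other 3, where chance gives about 1 in 20. WT 4 was the high library for the sense normalized count of *OYE3* (23.1, the others 4.90 to 5.03), *PAM16* (44.1, the others 28.04 to 29.6) and *SUL2* (15.1, the others 9.05 to 9.77). Among *rrp6Δ* libraries the sense counts of *DAK1* were high in library 4 (163.7, the others 82.8 to 84.8) and those of *YIH1* in library 2 (70.8, the others 35.2 to 39.5). Antisense normalized counts in *rrp6Δ* were low in library 4 for *SOD2* (9.19, the others 20.9 to 23.2), in library 1 for *CMC4* (462.2, the others 604.9 to 626.4) and in library 3 for YJR146W (14.6, the others 21.0 to 21.7), and high in library 2 for *CDD1* (5.51, the others 4.21 to 4.33). In WT they were high in library 3 for *ANB1* (1.04, the others 0.714 to 0.761). A single read set apart *PAM16* in WT 2 (0.126) and *SIF2* in WT 3 (0.148). The median antisense level per kb was lowest in *rrp6Δ* 4, both over the 536 rows (2.54, the others 3.25 to 3.37) and over those covered mainly by NUTs (2.39, the others 3.02 to 3.14). In *rrp6Δ* 2 the antisense level exceeded the sense level in 2 SRT-covered genes, and in 0 in the other *rrp6Δ* libraries.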

How the results depend on the processing

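Of 21 alternative settings, the number of antisense rows past the thresholds upward (468) stayed within 1.5 times under 19, the number of sense ORF-Ts that fell (109) under 13, the number that rose (4) under 12 and the number of genes with both an antisense rise and a sense fall (100) under 13. TMM factors based on ORF-Ts alone gave 18 sense falls, 11 sense rises and 17 genes with both, with a median sense log2 fold change of -0.11 and a median antisense one of 2.42. Library totals alone gave 11 sense falls, 12 rises and 11 genes with both, with medians of -0.066 and 2.48. Requiring at least 10 counts in every library kept 102 of the antisense rows and gave 70 of them upward, 18 sense falls and 5 genes with both, with a median sense change of -0.20 and a median antisense change of 1.70. With the replicate number as a block, 7 sense ORF-Ts rose and 16 antisense rows lay past the thresholds downward instead of 4, while the counts of sense falls, antisense rows upward and genes with both stayed within 1.5 times. Block and ORF-T-based TMM factors combined gave 36 falls, 20 rises, 33 genes with both and medians of -0.10 and 2.43. An FDR of 0.05 gave 68 falls and 62 genes with both. Coverage by CUTs and SUTs only left 173 members, 29 falls, 2 rises, 128 antisense rows upward, 25 genes with both and a median antisense change of 1.83. Leaving out 1 library at a time gave 53 to 115 sense falls, 2 to 8 rises, 47 to 106 genes with both, a median sense change of -0.44 to -0.26 and 460 to 473 antisense rows upward. The genes with both an antisense rise and a sense fall numbered 47 without *rrp6Δ* 1 and 62 without WT 4. The causes were not tested, apart from the removal of rows or members by construction.

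The 53 members that share reads with another transcript changed no result by over 1.5 times when left out (94 sense falls, 3 rises, 421 antisense rows upward). Depth limits the antisense values, with a median of 7.5 counts per WT library.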
